A study of Mus musculus with 12 samples.

Results

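Mesenchymal mammary tumor cells were compared with the mammary gland epithelium of the same mouse. The tumor cells were all cells of the 3 libraries labelled MT2 that held 0 UMIs (unique molecular identifiers, each counting 1 captured RNA molecule) of the immune genes Ptprc and Tyrobp and of the endothelial genes Pecam1 and Cdh5, and at most 2 UMIs summed over the fibroblast genes Dcn, Lum and Dpt. The gland cells were all cells of the 2 libraries labelled MG2 with 2 or more UMIs of Epcam, which encodes an adhesion molecule of epithelial cells. These rules kept 5585 of 10314 tumor cells (1233, 3045 and 1307 per library) and 2008 of 2335 gland cells (1016 and 992), in all 7593 of the 21157 cells of the series. The MT2 and MG2 libraries all came from 1 mouse (Xu738 in the library titles) of mixed C57BL/6 and 129/Sv background, with the genotype MMTV-Cre; Brca1flox/flox. Gland and tumor alike thus carried the floxed Brca1 alleles, with Cre under the MMTV promoter, which is active in mammary epithelium, and no library of an unfloxed mouse was compared. The age of the mouse is not given in the labels. Cells of both tissues had been dissociated with enzymes, depleted of hematopoietic and endothelial cells and captured by Drop-seq, a droplet method that counts the 3′ ends of RNAs. The libraries of 1 tissue repeat the preparation and not the animal, so each test below measures the spread between libraries of 1 tumor and 1 gland, and tissue and library preparation cannot be told apart. Summed over the chosen cells, the tumor libraries held 5411849, 7549994 and 4843374 UMIs (median of 3762, 2121 and 2999 per cell) and the gland libraries 3961744 and 3810508 (2575 and 2542.5 per cell).

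The mammary gland is lined by luminal cells, of which the secretory kind makes milk proteins and the hormone-sensing kind carries the receptors for estrogen, progesterone and prolactin, and is wrapped by contractile basal myoepithelial cells. All of them hold together through cadherins, claudins and desmosomes over a keratin skeleton. In epithelial-to-mesenchymal transition (EMT), cells lose these junctions and keratins and gain vimentin and a collagen-rich matrix, a switch for which the Snai, Zeb and Twist transcription factors are best known. Those of the Snai and Zeb families bind the E-box hexamer CACCTG in the promoters of epithelial genes. BRCA1 itself acts in homologous recombination, the repair of DNA breaks from an intact copy.

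The 8 genes of the cell rules are described only: they are left out of every count, list and named gene below. Epcam stood at 20.3, 38.7 and 20.4 CPM (UMIs of the gene scaled to a common total of UMIs per library) in the tumor cells and at 3905 and 3998 in the gland cells. Only 32 tumor cells held 2 or more Epcam UMIs. Dcn, which encodes the matrix proteoglycan decorin, was at 210.6, 375.6 and 254 CPM in the kept tumor cells, with a UMI in 62.77%, 64.79% and 65.03% of them, and at 312 and 333.6 CPM in the gland cells, with a UMI in 30.81% and 33.27%. Lum and Dpt had a UMI in at most 0.6886% of the tumor cells of any library. Most of the limit's effect came through Dcn: a limit on Lum and Dpt alone would keep 9909 tumor cells in place of 5585. The limit on Dcn, Lum and Dpt left out 4485 tumor-library cells that passed the other limits, 43.5% of MT2, and these had more UMIs than the kept cells (median of 4291 against 2495). They were near the kept cells in Vim (3874 against 3811 CPM), Fn1 (2277 against 2072) and Grem1 (989.7 against 941.2), while Col3a1 was at 707.3 against 173.7 and Col1a1 at 242 against 100.1. Cells just inside the limit, with 2 UMIs, held 206.8 CPM of Col3a1 and 3831 of Vim, and those just outside, with 3 UMIs, 308.7 and 3872. On the gland side, cells with 1 Epcam UMI (104 cells) had Vim at 1500 and Krt18 at 672.9 CPM, and those with 2 (117 cells) at 1275 and 1015. The rules differ between the tissues: 289 gland epithelial cells held over 2 UMIs of Dcn, Lum and Dpt, and 50 held a UMI of an immune or endothelial gene.

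Summed over 12 endothelial markers in the table, the level was 8.63 to 10.4 CPM in the tumor and 55.6 to 62.1 in the gland. Over 8 mural markers it was 4.37 to 5.95 and 16.2 to 17.3. Here and below, CPM per library was also scaled between libraries by the trimmed mean of M values (TMM). Exceptions are CPM of gland cells split by lineage markers and of cells kept or left out by the limit on Dcn, Lum and Dpt. Those were scaled to their total of UMIs only. Over 15 fibroblast markers it was 292 to 317 CPM and 219 to 231, and over 15 immune markers, of which S100a8 made up the greater part, 113 to 164 and 141 to 156. Of the 6 immune markers tested 3 rose and none fell (median log2 fold change 1.18), by the test described below, in which 22.6% of all genes rose and 25.5% fell: Csf1r (5.18, 5.77 and 4.79 CPM against 0.990 and 0.245), Lyz2 (8.63, 14.2 and 33.1 against 1.98 and 7.60) and Laptm5 (2.30, 2.11 and 3.33 against 0.495 and 0.980), while S100a8 was at 84.6, 92.1 and 101 against 148 and 120.3 and not called. Over 6 adipocyte and Schwann cell markers, which include Sox10, a gene of the mammary epithelium too, it was 11.03 to 15.5 CPM in the tumor and 103 to 114 in the gland, and over 4 erythroid markers 0 to 0.422 and 9.16 to 11.03. The fibroblast-restricted genes Pi16 and Clec3b were at 0 to 0.422 CPM in the tumor libraries. The tumor rule removed cells with immune, endothelial or over 2 fibroblast UMIs, and the gland rule did not. This favours lower levels of such markers in the tumor, so these values do not compare the purity of the tissues. The part of such cells in the results below was not tested.

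Of 13048 genes tested, 2949 rose in the tumor cells and 3326 fell, by a log2 fold change of at least 1 and an adjusted p under 0.05 (edgeR quasi-likelihood test, Benjamini-Hochberg over all genes). These were 22.6% and 25.5% of the genes tested, the background against which each gene group below has to be read. Libraries of the groups did not overlap in 79.7% of the genes tested, so a lack of overlap alone sets few genes apart. The median log2 fold change over all genes was -0.04. Changes were large in many genes: 782 rose and 1273 fell by a log2 fold change of 3 or more, 211 that rose had 0 UMIs in the gland cells and 362 that fell had 0 UMIs in the tumor cells. The plot of called genes by list orders the gene groups described below by their medians.

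**Figure D1:**
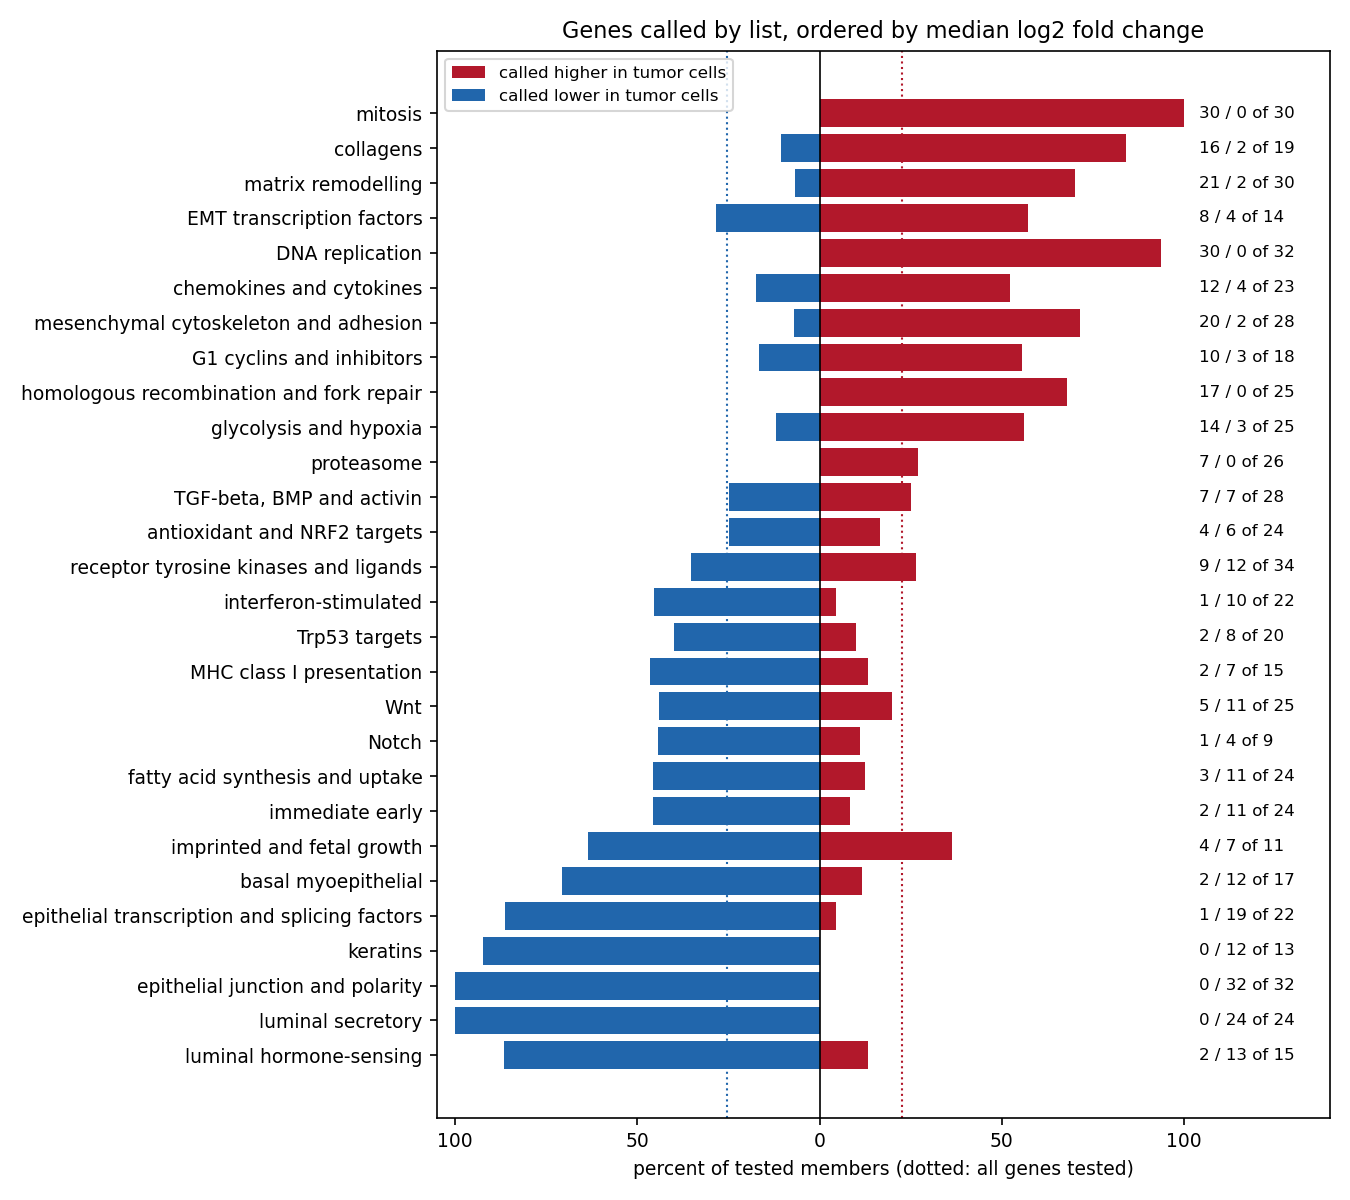
Percent of each gene list's tested members that rose (red, to the right) or fell (blue, to the left) in the tumor cells against the gland epithelium, with the counts at the right; dotted lines mark the shares over all genes tested, 22.6% and 25.5%. Mitosis, collagens and matrix remodelling lie at the top of the order by median log2 fold change, and the luminal, junction and keratin lists at the bottom.

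Genes of epithelial junctions and cell polarity fell without exception among the 32 tested, with a median log2 fold change of -6.17, and in each of them the tumor libraries lay below both gland libraries. Cdh1 (chr8:106603351-106670246 in GRCm38, plus strand), which encodes E-cadherin, the core of adherens junctions, was at 1.73, 1.97 and 2.91 CPM in the 3 tumor libraries and at 483 and 431 in the 2 gland libraries (log2 fold change -7.71 ± 0.21 SE, adjusted p = 2.9e-18). Cldn7, a tight junction claudin, measured 0.959, 0.141 and 1.67 CPM against 210.1 and 247 (-8.07 ± 0.29); the Cldn7 log2 fold change was -7.42 without the second and -8.82 without the third tumor library. The other claudins of the list, Cldn1, Cldn3, Cldn4 and Cldn8, fell by 5.25 to 8.68 on the log2 scale, and Cldn8 had no UMI in any tumor library. Of the desmosome genes, Dsp (desmoplakin) was at 3.45, 3.09 and 2.71 CPM in the tumor and 295 and 259 in the gland, and Pkp3 (plakophilin 3) at 0.767, 0.281 and 0.624 and 63.1 and 62.0. Spint2, which encodes an inhibitor of the membrane protease matriptase, stood at 0.384, 1.125 and 0.624 CPM against 217 and 218, and St14, the gene of matriptase itself, at 0.767, 0.985 and 0.416 against 176 and 147. Ap1m2, a sorting adaptor of epithelial cells, was at 0.384, 0 and 0.416 CPM against 33.2 and 33.8 and Crb3, a polarity gene of the apical membrane, at 0.576, 0.844 and 0.208 against 32.4 and 42.4. The smallest losses of the list were those of Pkp1 (-1.97 ± 0.25), Cd24a (-2.04 ± 0.14) and Perp (-2.34 ± 0.20). Cd24a, a surface glycoprotein often used to sort luminal cells, was still at 83.1, 97.5 and 94.5 CPM in the tumor libraries against 396 and 360.4 in the gland.

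Promoters of several of these genes carry the E-box in more than 1 copy, and 3 are shown because they hold the most copies among the junction genes with a RefSeq window (16 of 32). Each runs 5′ to 3′ on the strand of the gene over the 250 bases before the annotated start (GRCm38.p6), with CACCTG, or CAGGTG where the motif lies on the other strand, in capitals. Ap1m2 lies on the minus strand at chr9:21312334-21312583, Crb3 on the plus strand at chr17:57061951-57062200 and Spint2 on the minus strand at chr7:29281978-29282227.
Ap1m2: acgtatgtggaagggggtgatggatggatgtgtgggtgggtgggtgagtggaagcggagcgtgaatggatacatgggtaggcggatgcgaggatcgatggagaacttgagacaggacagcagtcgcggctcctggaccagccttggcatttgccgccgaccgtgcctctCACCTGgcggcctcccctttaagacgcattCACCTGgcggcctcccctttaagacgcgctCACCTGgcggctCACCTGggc
Crb3: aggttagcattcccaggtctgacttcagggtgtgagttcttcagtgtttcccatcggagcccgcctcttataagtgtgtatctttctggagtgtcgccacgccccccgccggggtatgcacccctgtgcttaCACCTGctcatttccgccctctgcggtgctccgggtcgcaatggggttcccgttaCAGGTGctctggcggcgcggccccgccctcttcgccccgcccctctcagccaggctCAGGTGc
Spint2: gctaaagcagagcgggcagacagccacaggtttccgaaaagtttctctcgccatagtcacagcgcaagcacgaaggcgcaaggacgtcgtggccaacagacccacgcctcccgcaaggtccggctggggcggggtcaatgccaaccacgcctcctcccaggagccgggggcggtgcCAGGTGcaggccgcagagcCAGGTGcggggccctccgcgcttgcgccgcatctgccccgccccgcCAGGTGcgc

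The 4 copies upstream of Ap1m2 begin 81, 51, 21 and 9 bases before the start, the 3 of Crb3 at 118, 63 and 7 and the 3 of Spint2 at 74, 55 and 9. A search for CACCTG on both strands found it in 9 of the 16 junction genes with a window (56.25%) and in 7 of 8 keratin genes (87.5%). Over all 27025 genes with a window it was in 19.43%. Among the genes that fell in the tumor cells 24.32% of 2237 with a window held it, among those that rose 14.85% of 2215, and among those tested and not called 16.54% of 4916. In collagen genes it was found in 2 of 16 and in mitosis genes in 0 of 26. A match describes the letters of these windows and does not show binding.

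Keratin genes fell in 12 of 13 tested (median log2 fold change -5.42), but 2 of them were still well detected in the tumor. Krt5, Krt6a and Krt15, keratins of basal or stratified epithelium, had no UMI in any tumor library and were at 50.5 and 34.3, 35.1 and 19.6 and 28.5 and 30.9 CPM in the gland, which makes them at least 242-fold, 156-fold and 169-fold lower against a floor of 3 UMIs over the 3 tumor libraries. Krt19 was at 1.73, 1.27 and 2.91 CPM against 1528 and 1688 and Krt7 at 4.22, 4.92 and 1.87 against 303 and 238. Krt14 of basal cells measured 3.26, 4.92 and 3.12 CPM in the tumor and 157 and 177 in the gland, where cells with basal markers, of which it is one, held 1584 and 2178 CPM and cells with secretory markers 78.6 and 76.6. In contrast, Krt8 and Krt18, the keratin pair of simple epithelia, remained at 332, 361 and 364 and at 409.8, 612 and 512 CPM in the tumor, against 2943 and 2732 and 2639.8 and 2190.5 in the gland (-3.01 ± 0.15 and -2.24 ± 0.17 log2). Krt10 did not pass the call, at 15.5, 21.2 and 15.6 CPM against 9.90 and 8.82.

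Vim and Krt18 were also counted together in single cells. To compare libraries of unequal depth, each cell was thinned to 1000 UMIs, and no cell was shallower. At that depth Vim was detected in 94.32%, 94.98% and 93.57% of tumor cells and in 6.89% and 8.669% of gland cells. Krt18 was detected in 28.06%, 37.83% and 35.5% of tumor cells and in 76.57% and 76.41% of gland cells. Both together were seen in 26.28%, 35.76% and 33.66% of tumor cells and in 4.035% and 4.536% of gland cells, so the tumor libraries lay above the gland libraries. Without thinning, 60.67%, 60.33% and 61.13% of tumor cells held a Krt18 UMI. As a measure of free RNA in the tumor libraries, 88 MT2 cells with 3 or more UMIs of Ptprc and Tyrobp, thinned alike (median of 2376 UMIs before), held Krt18 in 7.955% (95% exact interval 3.258 to 15.7) and Krt8 in 5.682% (1.87 to 12.76). By library the Krt18 share of these cells was 6.667% (of 30 cells), 16.67% (of 18) and 5% (of 40), and in the second the interval reached 41.42%, above the share of that library's tumor cells. In the same cells Fn1 was detected in 33.33%, 72.22% and 50% and Grem1 in 10%, 55.56% and 20%, so the second library was the highest in each of these 3 genes. The part of free RNA in the shares above was not tested. The intervals cover counting error only. Cdh1, Cldn7, Krt5 and Esrp1 were each detected in at most 0.153% of the thinned cells of any tumor library, and Krt5 and Esrp1 in none. At this depth the gland cells themselves held Krt5 in only 3.543% and 2.823% and Esrp1 in 8.563% and 6.653%, and without thinning 2 cells of the second tumor library held Esrp1. The zeros allow up to 0.0985% of cells with a UMI in the largest tumor library and 0.243% in the smallest, and do not bound the share of cells that express these genes.

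**Figure D2:**
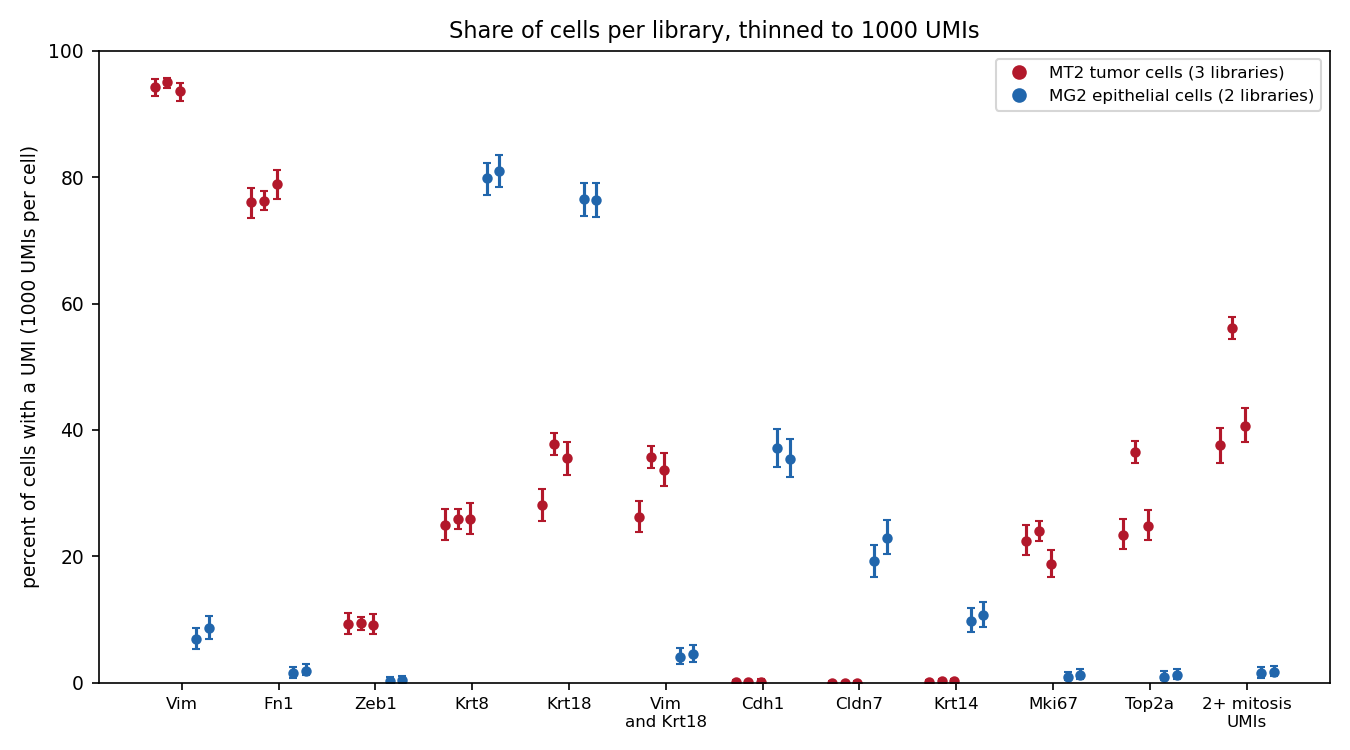
Percent of cells with a UMI of each gene after thinning every cell to 1000 UMIs, for the 3 tumor (red) and 2 gland libraries (blue); bars are 95% exact binomial intervals and cover counting error only. Vim lies above 93% in each tumor library while Krt18 lies between 28% and 38%, and the second tumor library stands above the other 2 in Top2a and in cells with 2 or more UMIs over the mitosis list.

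The genes by which the mammary lineages are told apart were lost with few exceptions. All 24 secretory genes tested fell (median log2 fold change -7.21). Csn2, which encodes the milk protein beta-casein, was at 3.07, 1.41 and 1.25 CPM in the tumor and 2869 and 2566 in the gland (-10.48 ± 0.25, adjusted p = 3.5e-19), and within the gland it stood at 4539.6 and 4149.9 CPM in cells with secretory markers against 30.7 and 76.6 in those with hormone-sensing markers. Wap, whey acidic protein, had no UMI in the tumor and 174 and 187 CPM in the gland libraries, at least 1033-fold lower, with 56% of the gland UMIs in 10 cells. Lalba, the lactose synthase subunit, was at 0.192, 0 and 0 CPM against 218 and 242 and Ltf, lactoferrin, at 0, 0.141 and 1.25 against 544 and 653. Cells of the tumor still held Lcn2 (lipocalin 2, a secreted defence protein) at 168, 204 and 168 CPM against 3707 and 3231, Cd14 at 113, 167 and 153 against 463 and 494 and Wfdc2 at 98.6, 149.8 and 119 against 586 and 659, the 3 genes of the list with the highest tumor levels. Kit, the stem cell factor receptor of luminal progenitors, was at 0.576, 0.281 and 0 CPM against 51.7 and 54.6.

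Of 15 hormone-sensing genes tested 13 fell (median -8.86, or -6.03 with the 5 genes at 0 UMIs in the tumor set at their bound). Prlr, the prolactin receptor, was at 0.959, 0.703 and 1.04 CPM in the tumor libraries and 1300.5 and 1295 in the gland. Wnt4 and Prom1 had no UMI in the tumor and were at 55.7 and 45.1 and 25.0 and 30.1 CPM in the gland. Pgr, the progesterone receptor, had 1 UMI over the 3 tumor libraries and 69.3 and 86.5 CPM in the gland. The 2 exceptions were paracrine signals. Tnfsf11, which encodes RANKL, the signal that hormone-sensing cells send to their neighbours and that drives osteoclast formation, was at 34.3, 37.4 and 34.3 CPM in the tumor and 0.495 and 0.490 in the gland (6.10 ± 0.36, adjusted p = 1.1e-12). Pthlh, parathyroid hormone-like hormone, was at 34.5, 42.8 and 38.3 CPM against 0.247 and 1.47 (5.45 ± 0.36, adjusted p = 8.1e-12). In both genes every tumor library stood above both gland libraries, but the gland levels rest on few UMIs, so the size of these folds is uncertain.

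Of 17 basal myoepithelial genes tested 12 fell and 2 rose (median -3.80). The contractile genes Acta2 (3.26, 6.47 and 5.83 CPM against 91.6 and 82.1), Myh11 (0, 0.422 and 0 against 183 and 142) and Tagln (0.767, 1.97 and 0.416 against 22.8 and 33.3) were lost, and so was Itga6 (6.91, 7.17 and 8.95 against 289.5 and 268), the laminin receptor subunit that ties epithelium to its basement membrane. Cald1, caldesmon, an actin-binding protein of smooth muscle and of many mesenchymal cells, rose to 2350.2, 2269 and 2000.2 CPM from 414 and 368. Lgals7, galectin 7, known from stratified epithelia, rose to 271, 221 and 288 CPM from 11.1 and 9.31. In the gland, Cald1 was at 2925 and 2668 CPM in cells with basal markers and at 283 and 243 in those with secretory markers.

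Among the 24 genes with the greatest log2 fold changes at 50 CPM or more, the 12 that fell had no UMI in any tumor library. Fgb (chr3:83040141-83049863, minus strand), the fibrinogen beta chain, was at 491 and 430.3 CPM in the gland and at 0 UMIs in each tumor library, at least 2629-fold lower, and its gland level was 1377 and 1372 CPM in hormone-sensing against 182 and 149 in secretory cells. Pcp4, a calmodulin-binding peptide, was at 195 and 206 CPM in the gland and also came mostly from hormone-sensing cells (621 and 673 against 58.4 and 67.1). Muc15, a membrane mucin (113 and 158), was instead highest in secretory cells, at 171 and 258 CPM against 3.29 and 4.79. Calca, the calcitonin gene, was at 79.9 and 82.8 CPM in the gland and Cxcl15, a chemokine of epithelia, at 75.0 and 82.6. Tmem56, Dkkl1, Fam25c, Myh14 (a nonmuscle myosin heavy chain), Tspan1 and Ppp1r9a completed the 12 with Wap, at 68.6 to 139.8 CPM in the gland libraries and at least 406-fold to 748-fold lower.

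Those that rose most included 6 genes without a UMI in the gland epithelium. Thbs4 (chr13:92751590-92794818, minus strand), thrombospondin 4 of the extracellular matrix, was at 115, 138 and 122 CPM in the tumor libraries and at 0 in both gland libraries, at least 343-fold higher. Hhip, an inhibitor of hedgehog ligands, stood at 123, 121 and 110.1 CPM and at least 321-fold higher, and Mmp9, a gelatinase, at 79.4, 82.7 and 99.7 CPM and at least 234-fold higher. Lce1f (81.0, 121 and 99.9), Podnl1 (63.1, 63.2 and 70.2) and Tmem163 (44.1, 64.8 and 58.3) were the other 3. Grem1 (chr2:113746164-113758646, minus strand), gremlin 1, a secreted antagonist of bone morphogenetic proteins (BMPs), had few gland UMIs, 9 in all, and was at 1072, 909 and 980.2 CPM against 0.742 and 1.47 (9.77 ± 0.29, adjusted p = 9.5e-18). Lce1g, of the late cornified envelope family of the epidermis, reached 1693, 2342 and 2043 CPM against 0.990 and 7.11; the Lce1 genes and Klra4 are members of near-identical families, and counts may be split among copies. Klra4, a lectin receptor gene known from natural killer cells, was at 261, 319.7 and 279.8 CPM against 0.495 and 2.21. Nrn1 (neuritin) was at 120.5, 113 and 102 against 0.247 and 0.245 and Ptprn, a gene of neuroendocrine secretory granules, at 170.4, 136 and 169 against 0.742 and 0.735. Folds over so few gland UMIs moved both ways with the gland library. Without the first the Grem1 log2 fold change was 9.38 and without the second 10.31. The Lce1g log2 fold change, 8.95 with both, was 8.16 and 10.94, and the Klra4 log2 fold change, 7.70 with both, 7.02 and 9.09. With gland cells chosen by the rule for tumor cells the 3 values were 11.53, 7.24 and 5.65. None of the 6 genes at 0 in the gland epithelium had a UMI in gland fibroblasts.

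**Figure D3:**
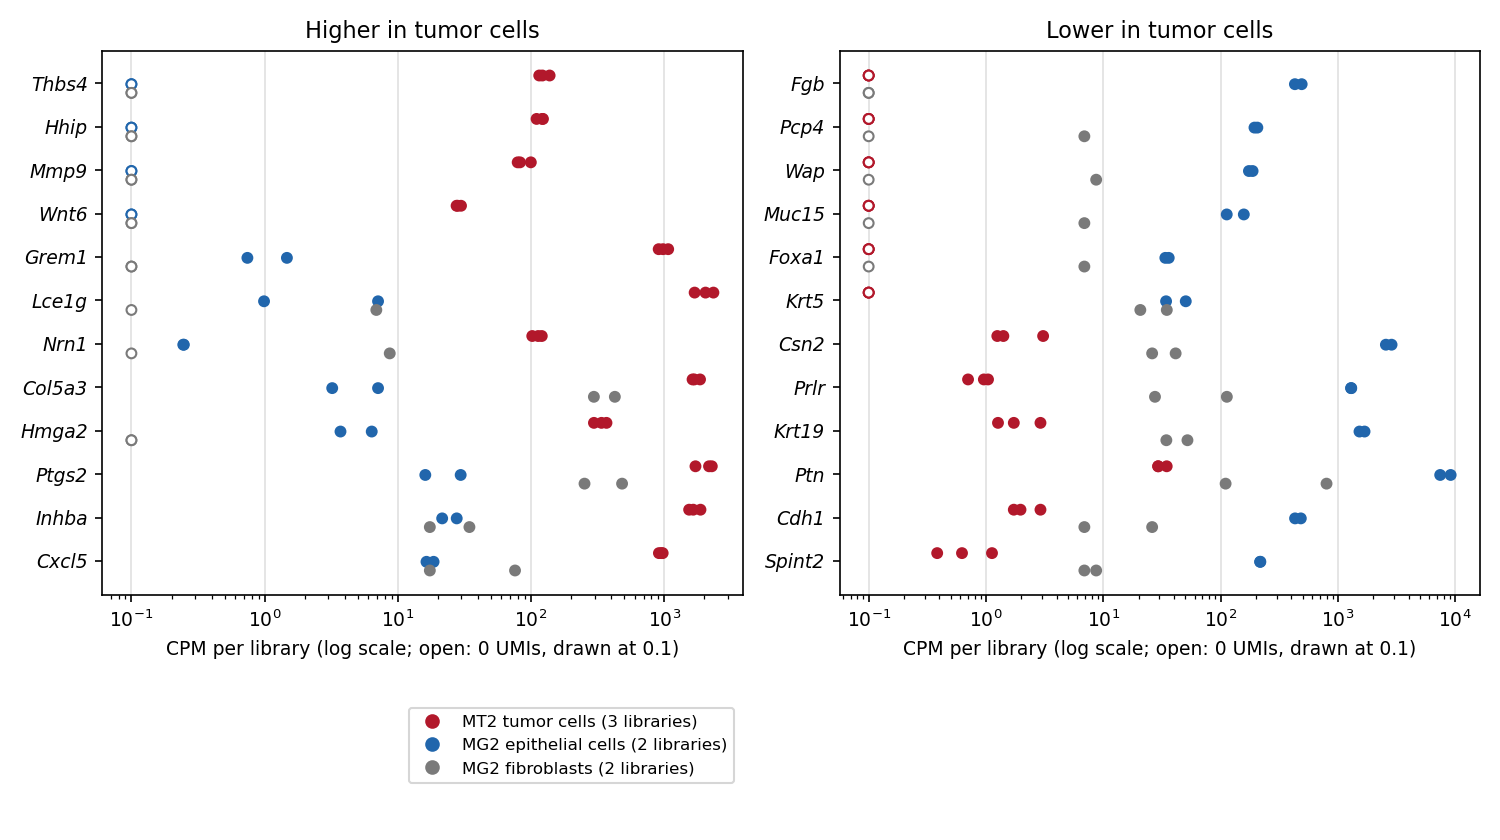
CPM per library (log axis; open symbols stand for 0 UMIs and are drawn at 0.1) of genes that rose (left) or fell (right), for 3 tumor libraries (red), 2 gland epithelial libraries (blue) and the fibroblasts of the 2 gland libraries (grey, 45 and 56 cells). Thbs4, Hhip, Mmp9 and Wnt6 have no UMI in either gland group, and Fgb, Pcp4, Wap, Muc15, Foxa1 and Krt5 have none in the tumor cells.

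In absolute level the greatest gain was that of Fth1, the ferritin heavy chain that stores iron, at 23898, 35641 and 27513 CPM in the tumor against 4215 and 3748 (2.87 ± 0.22); in the second tumor library it made up more of the RNA than in the other 2. Cxcl1 (4353, 5179 and 5116 against 552 and 543) and Cxcl2 (4166, 3979.9 and 4377 against 620.4 and 916), chemokines that draw neutrophils, came next with Vim (3929, 4089 and 3811 against 116 and 184). S100a6, Cst3 (cystatin C, an inhibitor of cathepsins), Actb and Lgals1 (galectin 1) completed the 8. Of these Cst3 rose from 138 and 135 to 2705, 3786 and 3176 CPM and Lgals1 from 24.7 and 73.0 to 2207, 3208 and 2675. The greatest loss in level was that of Ptn, pleiotrophin, a secreted growth factor, from 9149 and 7451 to 34.7, 29.4 and 29.4 CPM, and in the gland it was at 28040.1 and 25078 CPM in cells with hormone-sensing markers against 2635 and 2004 in secretory and 237 and 399 in basal cells. The other 7 with the greatest losses in level were Lcn2, Wfdc18, Csn3, Csn2, Plet1, Krt8 and H2-D1.

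Transcription and splicing factors of epithelium fell in 19 of 22 tested (median -5.27). Esrp1, which directs epithelial splicing, was at 0, 0.281 and 0 CPM in the tumor and 73.5 and 66.4 in the gland. Grhl2 (0, 0.281 and 0.624 against 27.0 and 24.7), a guardian of epithelial identity, Elf5 (0.576, 0.281 and 0.208 against 41.3 and 46.3), the driver of the secretory lineage, and Foxa1 (0 UMIs against 36.1 and 33.8), the pioneer factor of estrogen receptor binding, were lost. Gata3, a luminal master regulator, kept part of its level at 30.3, 20.1 and 29.8 CPM against 121 and 147 (-2.33 ± 0.18), and so did Trps1 at 120.5, 88.8 and 87.0 against 242 and 233. Klf5 (-0.85 ± 0.14) and Cebpb (0.58 ± 0.16) did not pass the call. The only one to rise was Trp63, the p63 gene of basal cells, at 10.4, 12.8 and 12.9 CPM against 3.22 and 2.21 in the gland as a whole (2.14 ± 0.33, adjusted p = 4.2e-06). In gland cells with basal markers, of which it is one, it was at 33.9 and 30.2 CPM.

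EMT transcription factors changed in both directions: 8 of 14 tested rose and 4 fell (median 3.14). Zeb1 was at 127, 108 and 99.1 CPM against 3.22 and 3.68 (5.01 ± 0.24), Zeb2 at 165, 134 and 124 against 5.20 and 3.92 and Snai1 at 46.4, 39.2 and 53.3 against 1.73 and 3.68, with no overlap between the groups. Twist2 (18.8, 18 and 20.0 against 0.247 and 1.23), Prrx2 (25.5, 29.8 and 26.2 against 1.48 and 0.490) and Runx2 (21.3, 20.1 and 18.5 against 4.95 and 3.68) rose as well. Hmga2, a chromatin protein of fetal tissue, showed the highest level of the list, 369, 297 and 338 CPM against 3.71 and 6.37 (6.04 ± 0.24, adjusted p = 8.3e-16). Snai2, in contrast, was at 0, 0.422 and 0.416 CPM in the tumor and 16.1 and 16.4 in the gland (-5.69 ± 0.44). Its level in the gland was higher in cells with basal markers (162 and 121 CPM against 8.68 and 10.3 in secretory cells). Cells with basal markers were few (47 and 53), so these levels do not say where most of its gland UMIs lay. Foxc1, Sox9 and Sox4 fell by 1.32 to 1.48 on the log2 scale. Prrx1 at 5.95, 6.61 and 5.83 CPM against 5.69 and 2.45 was not called, and Twist1 and the N-cadherin gene Cdh2 were under the count filter, at no more than 0.576 CPM in any tumor library.

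Of 28 genes of the mesenchymal cytoskeleton and adhesion, 20 rose and 2 fell (median 1.92). Fn1, fibronectin, was at 2164, 2068 and 2269.6 CPM in the tumor and 34.9 and 43.9 in the gland (5.78 ± 0.21), where 66.9% of its UMIs lay in 10 of the 2008 cells. Ncam1, a neural cell adhesion molecule, was at 531, 399 and 457 CPM against 10.4 and 15.9, Fscn1, the actin bundler fascin, at 152, 157 and 186 against 6.68 and 6.37, Cav1, the main coat protein of caveolae, at 413, 584 and 491 against 20.0 and 31.6 and Cd44, the hyaluronan receptor, at 883, 763 and 884 against 122 and 146. Mcam and Nes fell, at 1.34, 1.69 and 1.87 against 6.93 and 11.8 and 9.98, 10.4 and 11.4 against 41.1 and 37.5 CPM. Itgav, Itgb3, Spp1, Tpm1, Anxa1 and Cavin3 did not pass the call.

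Collagen genes rose in 16 of 19 (median log2 fold change 3.78) and matrix remodelling genes in 21 of 30 tested (median 3.18). Col5a3 (chr9:20770050-20815067, minus strand) was at 1684, 1858 and 1633 CPM in the tumor and 3.22 and 7.11 in the gland (8.38 ± 0.27), Col5a1 at 409.8, 368 and 414 against 2.23 and 2.94 and Col5a2 at 1201, 1154 and 1123 against 9.65 and 15.2, so the chains of the fibril-regulating type V collagen had the 3 greatest log2 gains of the list. The Col5a3 log2 fold change was 7.93 without the first and 9.03 without the second gland library. Col1a2 was at 2571, 2408 and 2532 CPM against 29.7 and 40.9 and its partner chain Col1a1 at only 120.1, 76.7 and 127 against 7.67 and 16.4. Type I collagen is assembled from both chains, and in the tumor libraries their levels lay far apart. Col1a2 also stood above Col1a1 in both gland libraries and in the gland fibroblasts described below. The limit on Dcn, Lum and Dpt left out tumor-library cells with more Col1a1 than the kept cells (242 against 100.1 CPM). Col4a5 (3.26, 1.83 and 1.04 against 44.1 and 41.9), of epithelial basement membrane, and Col16a1 fell. Of the enzymes that cross-link or fold collagen, Loxl2 was at 262, 279 and 236 CPM against 2.47 and 7.60, Lox at 45.7, 49.5 and 46.2 against 2.72 and 2.45, Plod2 at 135, 124 and 123 against 11.6 and 9.07 and Serpinh1, the collagen chaperone, at 254, 314 and 327 against 19.8 and 30.1. Of the proteases Mmp2 was at 552, 610.0 and 579 CPM against 12.6 and 15.2 and Mmp13 at 17.7, 15.2 and 20.2 against 0.742 and 0.490. Timp1, an inhibitor of such proteases, rose to 1283, 1648 and 1491 CPM from 44.8 and 46.6 while Timp3 fell to 23.6, 17.7 and 18.3 from 90.1 and 67.1. Mrc2, a collagen uptake receptor, was at 20.1, 13.1 and 16.2 CPM against 0.742 and 0.980.

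To see how near the tumor cells come to mesenchymal cells of the gland, they were also compared with 101 fibroblasts of the MG2 libraries (45 and 56 cells with 3 or more UMIs over Dcn, Lum and Dpt, and none of Epcam or of the immune and endothelial genes). These hold only 109321 and 143616 UMIs, and the comparison shares the tumor libraries with the first. Of 11688 genes tested 1977 rose (16.9%) and 1149 fell (9.83%); without the first gland library the counts were 1263 and 914, and without the second 979 and 737. The median over all genes was 0.57, so list medians and the folds of single genes are to be read against it. Vim was at 4732 and 4511 CPM in the fibroblasts and did not pass the call (-0.23). Col5a1, Col5a2, Col4a1, Mmp2, Loxl2 and Zeb1 were likewise not called, with log2 fold changes of -0.79 to 0.21. The lack of a call does not mean equal levels. Mmp2 (-0.68, edgeR adjusted p = 0.0034) and Col5a2 (-0.46, adjusted p = 0.046), for instance, were lower and missed only the fold limit. Col1a1 (2374 and 4097 CPM in the fibroblasts), Col3a1 (6114 and 7539) and Postn (1653 and 1876) were lower in the tumor by 4.92, 5.28 and 5.54 on the log2 scale. Higher in the tumor were Col5a3 (2.27), Col18a1 (3.55), Fn1 (1.88), Timp1 (2.67) and Inhba (5.97). Over the lists, 3 collagens rose and 10 fell of 19, and 4 matrix genes rose and 17 fell of 30. Of 13 EMT transcription factors tested 2 rose and 4 fell (median -0.19), with Prrx1 lower by 5.62, Twist1 by 7.93 and Zeb2 by 1.28 on the log2 scale and Prrx2 (-0.64) not called. Of 12 fibroblast markers tested 11 fell. Clec3b and Cygb each had 1 UMI over the 3 tumor libraries, under the floor of 3, against 669.7 and 662 and 409 and 724 CPM in the fibroblasts. The cell rules, with at most 2 UMIs of Dcn, Lum and Dpt in tumor cells and 3 or more in fibroblasts, favour this direction: MT2 cells left out with over 10 such UMIs held 1855 CPM of Col3a1, 8.779 of Pi16 and 3.392 of Clec3b against 173.7, 0.2247 and 0.05616 in the kept cells. Krt8 and Krt18 were higher in the tumor than in the fibroblasts (1.15 and 1.91), whose own levels were 183 and 138 and 174 and 103 CPM.

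**Figure D4:**
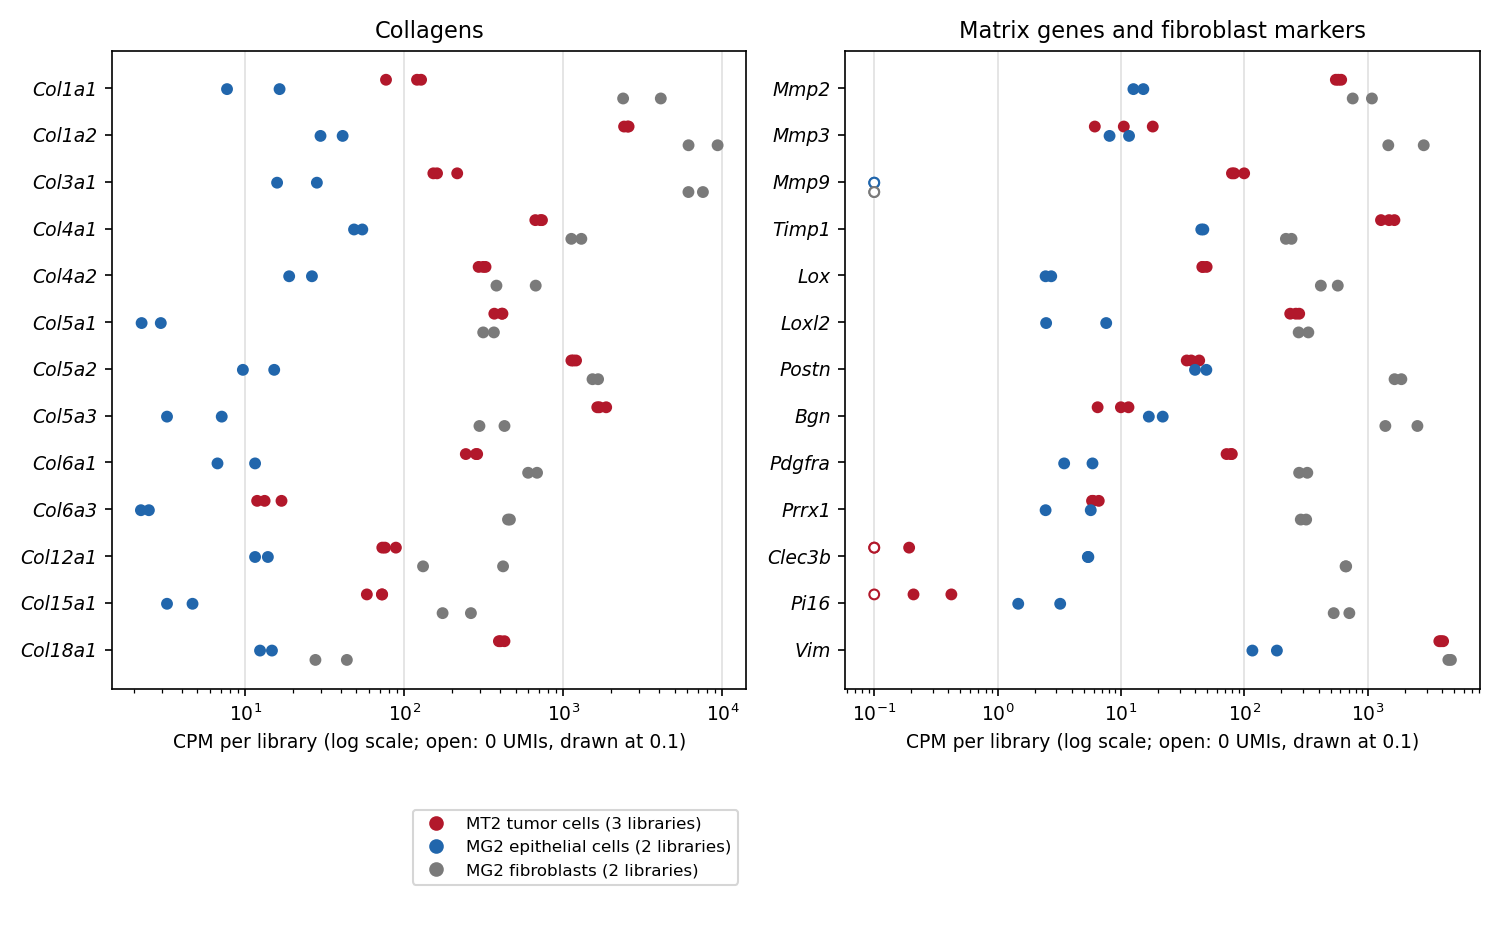
CPM per library (log axis; open symbols stand for 0 UMIs and are drawn at 0.1) of collagens (left) and of matrix genes and fibroblast markers (right) in tumor cells (red, 3 libraries), gland epithelial cells (blue, 2) and gland fibroblasts (grey, 2). The tumor libraries lie near the fibroblasts in Col5a1 and Vim, above them in Col5a3, Col18a1, Timp1 and Mmp9, and far below them in Col1a1, Col3a1, Postn, Bgn, Prrx1 and Pi16.

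All 30 mitosis genes were higher in the tumor (median log2 fold change 4.09), as were 30 of 32 DNA replication genes (median 2.41), with Pcna and Fen1 not called. Ccnb1, the mitotic cyclin B1, was at 26.9, 59.1 and 23.7 CPM against 0.247 and 1.47, Ube2c, of the anaphase ubiquitin machinery, at 90.6, 192 and 79.1 against 1.48 and 5.64 and Rrm2, the ribonucleotide reductase subunit that supplies DNA precursors, at 51.0, 93.1 and 53.1 against 4.21 and 3.68. The second tumor library was the highest of the 3 in each of these, and after thinning 56.2% of its cells held 2 or more UMIs over the mitosis list, against 37.55% and 40.7% in the others and 1.476% and 1.714% in the gland. That library also had the lowest median depth and the lowest share of mitochondrial UMIs (4.87% against 8.48% and 5.44%), and the part of these in its cycle level was not tested.

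The INK4 inhibitors of CDK4 and CDK6 rose together: Cdkn2a was at 237, 229.8 and 272 CPM against 7.67 and 12.7 (4.59 ± 0.22), Cdkn2b at 50.8, 60.6 and 62.4 against 7.18 and 5.88, Cdkn2c at 37.0, 57.5 and 42.3 against 1.73 and 1.72 and Cdkn2d at 23.2, 39.1 and 22.5 against 4.21 and 5.15. A 3′ count of Cdkn2a does not separate its p16 and p19Arf transcripts. Their target kinase Cdk6 rose to 212, 171 and 178 CPM from 14.8 and 21.3, and E2f1 to 31.5, 29.7 and 31.8 from 1.24 and 2.45. Of the CIP/KIP inhibitors, Cdkn1a (p21) fell to 171, 212 and 159.9 CPM from 533 and 492 and Cdkn1c (p57) had 1 UMI in the tumor against 9.90 and 4.17 CPM, while Cdkn1b was not called. Rb1, the retinoblastoma gene that INK4 proteins act through, fell to 9.02, 10.4 and 9.16 CPM from 38.9 and 35.0. In all 10 of the 18 genes tested rose and 3 fell.

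Of 25 homologous recombination and fork repair genes tested 17 rose and none fell (median 1.60). Brca1 itself was at 7.67, 13.8 and 9.99 CPM in the tumor and 1.98 and 2.45 in the gland (2.25 ± 0.37); tags from the 3′ end say nothing of a deletion further upstream, so this level is no check of the genotype. Brca2, a partner of BRCA1 in this repair, was at 53.3, 50.8 and 40.0 CPM against 9.40 and 16.2. Trp53 fell to 9.98, 10.97 and 9.58 CPM from 50.7 and 55.9, and of the 20 genes tested of a list of its targets, which counts Trp53 itself, 8 fell and 2 rose (median -0.73). Trp53inp1 was at 9.40, 9.28 and 11.2 CPM against 259 and 225 and Plk2 at 7.67, 9.14 and 9.16 against 119.5 and 108, while Fas, a death receptor, rose to 60.2, 79.0 and 64.1 from 18.3 and 19.1. Mdm2, Bax and Ccng1, among the best known targets, were not called.

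Signalling genes did not move as whole pathways. Of 28 genes of TGF-beta, BMP and activin signalling 7 rose and 7 fell (median 0.12). That is 25% each way, near the 22.6% and 25.5% over all genes tested. The ligand gene Inhba, which encodes the activin A subunit, rose to 1872, 1653 and 1539 CPM from 21.5 and 27.7 (6.10 ± 0.21) and its relative Inhbb fell to 24.6, 15.5 and 23.9 from 132 and 115. Fst, the activin antagonist follistatin, was at 584, 476 and 525 CPM against 429.9 and 381 and not called. The BMP ligands Bmp2 and Bmp4 fell by 4.31 and 3.49 on the log2 scale, and the targets Id1 and Id2 went opposite ways, Id1 to 65.6, 74.5 and 71.2 CPM from 11.4 and 7.84 and Id2 to 6.91, 5.34 and 9.16 from 69.3 and 74.7. Tgfb1, Tgfb2 and Tgfbr1 were not called, while Tgfbr2 fell to 15.5, 14.5 and 14.2 from 51.7 and 49.0 and Smad3 to 9.78, 10.8 and 11.4 from 35.4 and 36.3.

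Of 25 Wnt genes 5 rose and 11 fell (median -0.75). Ligands moved in both directions: Wnt4, Wnt5b and Wnt5a fell, Wnt5b from 39.8 and 41.9 to 0.192, 0.141 and 0.624 CPM, while Wnt6 rose from 0 UMIs to 27.6, 29.8 and 28.1 CPM, at least 78-fold, and Wnt10a to 32.6, 39.9 and 29.1 from 2.97 and 2.94. Of the receptors Fzd1 rose to 91.3, 86.5 and 88.9 CPM from 7.42 and 3.92 and Fzd6 fell. Rspo1, an amplifier of Wnt signals, and the antagonists Wif1, Sfrp1 and Dkk2 fell. The feedback target Axin2 rose to 3.26, 2.53 and 3.54 CPM from 0.990 and 1.72 (1.16 ± 0.47), a call near the limit of 1 that rests on few gland UMIs. Notch genes showed 1 rise (Notch2, 45.9, 39.7 and 48.3 CPM against 21.0 and 14.5) and 4 falls of 9, among them the targets Hes1 (25.9, 25.3 and 24.1 against 145 and 125) and Hey1.

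Of 34 receptor tyrosine kinases and ligands tested 9 rose and 12 fell (median -0.13). These were 26.5% and 35.3%, against 22.6% and 25.5% over all genes tested. The epithelial receptors Erbb3 (0.192, 0 and 0 CPM against 41.6 and 47.3), Erbb4 (0 UMIs against 10.9 and 10.3) and Fgfr2 (1.34, 2.39 and 4.16 against 91.3 and 84.3) were lost. The receptors typical of mesenchyme, Pdgfra (79.2, 77.8 and 71.8 against 3.46 and 5.88), Pdgfrb (33.8, 26.2 and 34.1 against 0.742 and 0.490), Axl (97.1, 91.1 and 103 against 5.69 and 10.8) and Ddr2 (40.7, 36.4 and 37.7 against 8.91 and 7.60), a collagen receptor, rose. Pdgfa, a ligand of Pdgfra, rose to 429, 435 and 398 CPM from 64.8 and 66.6 and Hgf, the ligand of Met, to 83.5, 86.8 and 73.9 from 12.9 and 10.8, while Gas6, the ligand of Axl, fell to 0.767, 0.281 and 1.25 from 147 and 198. Egfr, Erbb2, Met, Igf1r and Fgfr1 did not pass the call.

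Of 25 glycolysis and hypoxia genes 14 rose and 3 fell (median 1.20). Slc16a3, which exports lactate, was at 34.7, 40.1 and 43.3 CPM against 1.48 and 1.23, and the enzymes Pgk1, Pgam1, Eno1, Aldoa, Gapdh, Pkm and Ldha rose by 1.14 to 2.54 on the log2 scale. Hk2 rose to 120.3, 84.8 and 109 CPM from 35.9 and 53.7 and its relative Hk1 fell to 24.0, 27.0 and 23.1 from 61.1 and 63.7, while Vegfa and the glucose transporter Slc2a1 were not called. Of 24 fatty acid genes 3 rose and 11 fell (median -0.92). The desaturases moved in opposite directions, Scd2 rising to 142, 126 and 132 CPM from 7.67 and 12.01 and Scd1 falling to 85.4, 92.5 and 89.9 from 292 and 248. Genes of lipid uptake and droplets, Lpl (2.49, 2.25 and 3.33 against 43.1 and 41.9), Cidea (0 UMIs against 56.4 and 39.2) and Plin2 (117, 141 and 116 against 615 and 493), fell. The synthesis enzymes Fasn, Acaca and Acly did not pass the call. Of 26 proteasome genes 7 rose and none fell (median 0.63), with Psma7 at 2185, 2853 and 2329 CPM against 741 and 584; 7 of 26 is 26.9%, near the background of 22.6%.

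Secreted signals to immune cells rose in 12 of 23 tested and fell in 4 (median 2.11). Ptgs2, the inducible cyclooxygenase that makes prostaglandins, was at 2278, 1718 and 2171 CPM against 16.1 and 29.6 (6.49 ± 0.26), Cxcl5 at 913, 974 and 951 against 18.6 and 16.4 and Ccl2, which draws monocytes, at 599.9, 1009.6 and 812 against 13.1 and 32.6. The cytokines Il6 (158, 117 and 167 against 19.8 and 19.1), Il11 (77.7, 70.6 and 81.2 against 4.95 and 4.41), Csf1 (531, 520.1 and 511 against 119.5 and 122) and Csf2 (58.3, 38.0 and 79.7 against 0 and 1.72) rose too. Cxcl14, which was at 2248 and 2559 CPM in gland cells with basal markers, fell to 2.11, 2.11 and 1.87 from 234 and 233 over the gland. Against the gland fibroblasts 4 of 21 genes of this list rose and 10 fell (median -1.01, with 0.57 over all genes). In the fibroblasts Ccl2 and Il6 were higher than in the tumor cells, at 3088 and 4125 and 1566 and 2483 CPM, and Ptgs2 and Cxcl5 lower, at 252 and 483 and 17.4 and 75.9.

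Antigen presentation on MHC class I fell in 7 of 15 genes and rose in 2 (median -0.73). The heavy chain H2-K1 was at 126, 170.5 and 142 CPM against 1586 and 1118 (-3.21 ± 0.17), H2-D1 at 402, 544 and 474 against 2833 and 2087 and H2-Q4 at 3.26, 2.25 and 2.71 against 124 and 119; these genes are close relatives, and reads may be shared among them. The light chain B2m was not called, at 1394, 1915 and 1759 CPM against 2318 and 2315. The peptide transporter genes Tap1 and Tap2 and the regulator Nlrc5 fell, and the proteasome genes Psmb10 (88.1, 111 and 96.4 against 27.2 and 26.5) and Psme2 rose. Of 22 interferon-stimulated genes 10 fell and 1 rose (median -0.57), with Ifih1, a sensor of viral RNA, at 2.11, 2.81 and 1.46 CPM against 89.1 and 75.7 and Irf7 at 0.192, 0.281 and 0.833 against 9.16 and 13.7. Irf1 was not called.

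Immediate early genes, which respond within minutes to stimuli and also to tissue dissociation, fell in 11 of 24 and rose in 2 (median -0.97). Fos was at 232, 226 and 295 CPM in the tumor and 1907 and 1719 in the gland and Jun at 219, 188 and 230.2 against 1488 and 1243. Ier3 rose to 846, 774 and 939 from 283 and 260.0 and Klf2 to 93.4, 134 and 141 from 27.0 and 28.4, and Egr1, Junb, Myc and Dusp1 were not called. Both tissues were dissociated by the same protocol, and its part in these levels was not tested.

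Changes were spread unevenly over the chromosomes. Over 12915 genes with a position in the annotation (GENCODE M21 on GRCm38) the median log2 fold change was -0.04, and by chromosome it ran from -0.48 on chromosome 7 (904 genes) to 0.50 on chromosome 2 (1044 genes). On chromosome 2, 35.7% of the genes rose and 17.9% fell, and on chromosome 7, 12.9% rose and 36.0% fell. Chromosomes X (0.45), 3 (0.44), 1 (0.37), 19 (0.32) and 18 (0.31) were also above zero, and 4 (-0.42), 12 (-0.42), 14 (-0.40) and 10 (-0.40) below. Over 1222 runs of 40 neighbouring genes, with 90% of the runs between -0.76 and 0.82, the lowest median was -1.51, from Gdpd5 to Rnf121 (chr7:99381414-102065469; 23 fell and 3 rose), and the highest 1.62, at chr2:148436640-153225441 (27 rose and 4 fell). These medians describe genes of 1 tumor against 1 gland, and genes are not replicates.

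**Figure D5:**
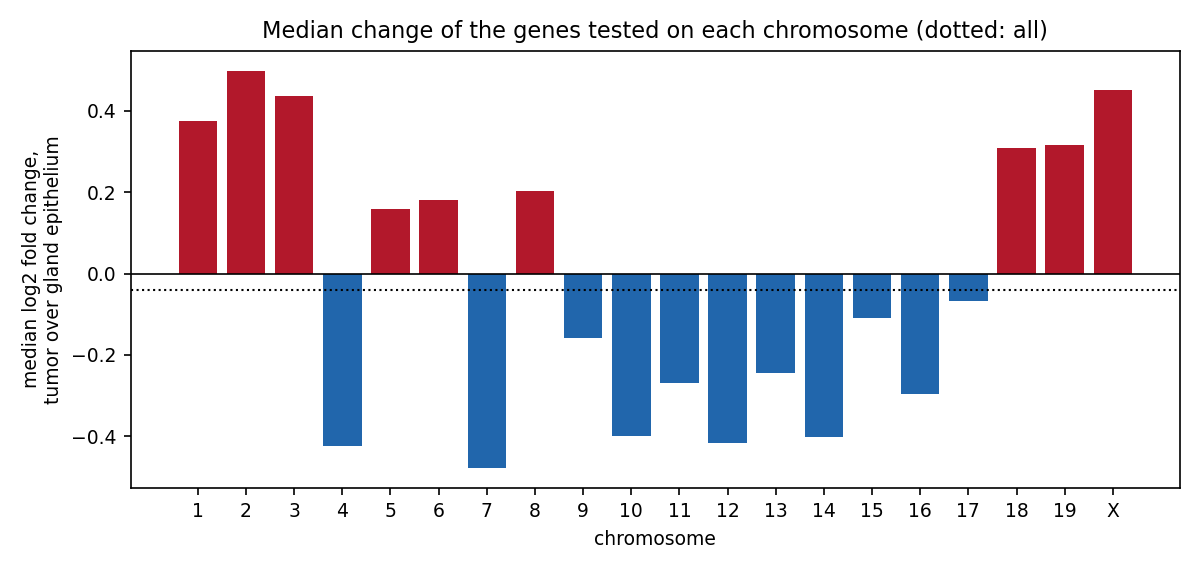
Median log2 fold change of the genes tested on each chromosome, tumor cells over gland epithelium (bars, red above and blue below zero; dotted line, all genes at -0.04). Chromosomes 2, X and 3 have the highest medians and 7, 4 and 12 the lowest.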

How the data were processed

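The values are UMI counts per gene and cell, deposited as 1 table of 21743 genes and 21157 cells. The authors aligned Drop-seq reads to GRCm38.p6 with STAR and processed them with Drop-seq tools; whether counting used strand is not given in the sources used here. The members, gene lists and cell rules were chosen with earlier results of these data known. Raw counts were summed per library over the chosen cells and tested with edgeR 4.0.16 (R 4.3.3) by the quasi-likelihood test with TMM scaling, filterByExpr and Benjamini-Hochberg adjustment over all genes tested. A gene was called at an adjusted p under 0.05 and an absolute log2 fold change of at least 1, and SE is the log2 fold change over the square root of F. The script was tested on simulated data. No doublet caller was run; leaving out the 5% of cells with the most UMIs was an alternative. Pairs of the 5 libraries shared at most 7 cell barcodes and differed by more than sampling noise.

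Genes were named by 4 rules: the 12 highest and 12 lowest log2 fold changes among called, non-overlapping genes at 50 CPM or more, the 8 greatest gains and 8 greatest losses in CPM, up to 4 called members per list at 20 CPM or more, and Brca1, Trp53, Mrc2, Vim, Cdh1, Fn1, Krt8, Krt18 and Krt14. Other genes named with their values are further members of the lists and were chosen after their values were seen. A gland cell was given to the lineage with 3 or more UMIs and at least 2 times those of the next list: basal by Krt5, Krt14, Krt17, Acta2, Mylk, Oxtr and Trp63, secretory by Csn3, Ltf, Lcn2, Wfdc18, Kit, Aldh1a3, Folr1 and Cd14, hormone-sensing by Prlr, Pgr, Esr1, Cited1, Prom1, Tnfsf11 and Wnt4; 107 and 103 cells were given to none. Alternatives were DESeq2 1.42.0, RLE size factors, no count filter, thinning to 1000 UMIs, other cell limits and each library left out. Promoter windows came from RefSeq tables on GRCm38.p6 and gene positions from GENCODE M21. Some members of the lists are not reported here.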

Additional observations from a re-analysis of the deposited data

How the results depend on the processing

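All 146 genes named by rule kept their direction and call under the 17 alternatives that gave them a value (2480 values, DESeq2 1.42.0 and RLE size factors included). Most were named for a call with a large change in these same libraries, so their stability says little of other genes. With each library left out in turn, 2771 to 3004 genes rose and 3121 to 3371 fell against the gland epithelium. Thinning to 1000 UMIs gave 2217 and 2290, no count filter 4008 and 4140, and DESeq2 2784 and 3206. With any number of Dcn, Lum and Dpt UMIs allowed in the tumor cells, a setting chosen after seeing the data, 3708 rose and 3675 fell, and with none allowed, 2469 and 2930. Against gland fibroblasts, 979 to 1829 genes rose and 737 to 1182 fell with each library left out, the fewest without the second gland library (979 and 737); the cause was not tested. The median of the fibroblast markers, -2.22, turned to 0.45 with gland cells chosen by the tumor rule, to 0.69 with both rules and to 0.90 after thinning, so no direction is read from that list; both rule settings remove gland cells with over 2 UMIs of Dcn, Lum and Dpt, and the first also drops the Epcam limit. The erythroid list could not be given a median after thinning. No paired analysis was possible because the replicates were numbered in accession order, which only names a library, and gland and tumor were prepared as separate libraries. Depth limits genes under the floor of 3 UMIs, 0.175 CPM over the tumor and 0.369 over the gland libraries.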

Other observations

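Of 11 imprinted and fetal growth genes tested 4 rose and 7 fell (median log2 fold change -1.97). Igf2bp2, an RNA-binding protein gene active in the fetus, rose to 88.8, 85.8 and 73.7 CPM in the 3 tumor libraries from 4.70 and 6.37 in the 2 gland libraries (3.90 ± 0.23 SE, edgeR adjusted p = 7.7e-13), and Hmga1, a chromatin protein, to 40.9, 36.7 and 41.4 from 12.4 and 15.2. The paternally expressed Peg3 fell to 0.959, 0.281 and 0.833 CPM from 47.0 and 36.8, and Grb10 and Plagl1 fell by 4.70 and 4.62 on the log2 scale. Igf2 was at 0 in both gland libraries and at 0.576, 0.422 and 0.624 CPM in the tumor, under the count filter.

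Antioxidant genes and targets of NRF2 moved both ways, with 4 of 24 higher and 6 lower (median -0.05), 16.7% and 25.0%, at or under the shares over all genes tested of 22.6% and 25.5%. Slc7a11, the cystine importer that feeds glutathione synthesis, fell to 0.576, 0.563 and 1.67 CPM from 38.9 and 37.0 (-5.39 ± 0.31; the Slc7a11 log2 fold change was -6.02 without the third tumor library), and Gclc, the first enzyme of that synthesis, to 36.6, 27.8 and 37.5 from 96.8 and 91.1. Gpx4, which reduces lipid peroxides, was at 79.4, 65.1 and 69.5 CPM against 149 and 147. The glutathione transferase Gstm2 rose to 34.5, 42.9 and 37.1 CPM from 3.46 and 1.96, with 59.1% of its gland UMIs in 10 cells. The metallothioneins Mt1 and Mt2, Hmox1 and Nqo1 did not pass the call.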
